A study of Homo sapiens with 6 samples.

Results

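The genes examined here encode collagen chains. They were taken as every row of the deposited gene tables whose symbol has the form COL, a type number, the letter A and a chain number, with antisense symbols left out. This gave 43 of 35819 rows, all of which have a position in GENCODE v29, on 17 chromosomes. By class, 11 are fibrillar, 5 basement membrane, 6 beaded filament and 10 FACIT (fibril-associated collagens with interrupted triple helices) chains, 3 form short-chain networks, 1 forms anchoring fibrils, 2 are multiplexins, 4 are transmembrane chains and COL26A1 was left unclassified. The expression of COL4A4 was not analysed here.

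Ribosomal RNA was depleted from total RNA of HT1080, a human fibrosarcoma (connective tissue tumour) cell line, and the rest was sequenced. The 3 TOP3B knockout libraries came from cells edited by CRISPR with a guide RNA against exon 2 of TOP3B, from a clone named E2-2, and the 3 wild-type (WT) libraries came from HT1080 cells with no edit named in the labels. TOP3B encodes topoisomerase III-beta, which acts on DNA and RNA, and the series asked how it affects R-loops and transcription. Both groups were grown in the same medium with fetal bovine serum. The knockout is 1 clone, so clone and knockout cannot be told apart. Nothing in the labels says that the libraries of a group came from separate cultures. The p-values set the group difference against the spread of these libraries alone, and that spread may be technical.

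Collagen chains wind around each other in groups, and each chain of the helix needs glycine, the smallest amino acid, at regular intervals so that it can pack in the centre. Fibrillar collagens hold a long unbroken helix and assemble into the fibrils that give connective tissue its strength. Basement membrane (type IV) collagens form sheets under epithelia and around vessels, beaded filament (type VI) collagens link cells to the fibrils, and FACIT collagens sit on fibril surfaces. The chains are hydroxylated and folded in the endoplasmic reticulum, secreted, trimmed by proteases and cross-linked by lysyl oxidase.

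The glycine pattern can be read in the coding sequences, and one stretch is shown for each of 4 chains to which the results below return. Each is the first 90 bases of the longest run in which a glycine codon opens every triplet of codons, from the GENCODE v29 coding sequence, 5′ to 3′, with the glycine codon (GGN) that opens each triplet in capitals and any further glycine codon left in lower case.
COL1A1: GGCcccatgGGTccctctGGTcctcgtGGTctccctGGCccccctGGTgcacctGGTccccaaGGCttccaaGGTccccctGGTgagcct
COL5A1: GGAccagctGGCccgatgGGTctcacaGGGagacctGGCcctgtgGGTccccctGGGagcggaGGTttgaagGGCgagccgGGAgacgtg
COL6A3: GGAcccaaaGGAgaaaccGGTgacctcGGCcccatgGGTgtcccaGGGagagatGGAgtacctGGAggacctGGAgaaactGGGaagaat
COL13A1: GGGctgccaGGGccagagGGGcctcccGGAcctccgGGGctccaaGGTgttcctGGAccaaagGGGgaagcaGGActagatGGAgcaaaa
In the fibrillar chains COL1A1 and COL5A1 the run held 338 glycine triplets without a break, which is 69.3% of the 1464 codons of COL1A1 and 55.2% of the 1838 codons of COL5A1. In COL6A3 the run was 45 triplets, 4.25% of 3177 codons, and in the transmembrane chain COL13A1 it was 44. Over the classes the longest run spanned 216 to 343 triplets in fibrillar chains, 38 to 66 in basement membrane chains, 28 to 87 in beaded filament chains and 32 to 113 in FACIT chains.

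Library totals were 18501898 to 20340136 estimated counts in knockout and 17919106 to 20475280 in WT libraries. Knockout replicate 3 stood apart: over 6544 genes the SD of its log2 differences was 0.623 from knockout replicate 1 and 0.599 from replicate 2, against 0.238 between those 2 and 0.268 to 0.327 between WT libraries. Knockout replicates 1 and 2 were at 0.454 to 0.489 from the WT libraries, nearer than to knockout replicate 3. Where leaving out knockout replicate 3 changed a chain's call or direction, or moved its fold by over 1.5 times, the value without it is given too. For the called partner genes only the number of fits without 1 library that passed is given. Levels are given as CPM, which here are counts scaled by the library's total over tested genes and its TMM factor. TOP3B itself was at 19.3 ± 0.774 CPM in knockout and 24.2 ± 5.82 CPM in WT libraries (SD, n = 3 each), and did not pass the test (log2 fold change -0.33 ± 0.19 SE, adjusted p = 0.342), so its transcript level does not check the labels. The series text names HCT116, a colon carcinoma line, once, while the labels name HT1080. The summed mesenchymal markers were at 15149 to 16605 CPM in knockout and 24096 to 25219 CPM in WT libraries, the difference lying mainly in FN1. VIM, FN1 and CD44 made up most of these sums. MMP14 averaged 14.0 CPM in knockout and 23.4 in WT, and CDH2 averaged 8.06 in knockout and 8.46 in WT. TWIST1 averaged 1.71 in knockout and 2.10 in WT, and S100A4 averaged 1.27 in knockout and 3.09 in WT. THY1, also on the mesenchymal list, had 1 count in WT replicate 1 and 0 elsewhere. The summed epithelial markers were at 109 to 132 CPM in knockout and 106 to 118 CPM in WT libraries. KRT8, at 90.5 CPM on average in knockout and 92.7 in WT, and KRT18, at 26.4 in knockout and 16.5 in WT, made up most of this. The other epithelial markers averaged at most 2.01 CPM in either group, with KRT20 and CDX2 listed at 0. The endothelial and blood lists summed to at most 1.31 CPM in any library.

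Members were tested with edgeR's quasi-likelihood test over 13965 genes, with p-values adjusted by Benjamini-Hochberg over all of them and a threshold of 0.05. Of the 43 chains 23 passed the filter on low counts, and 3 of these passed the test. COL1A1 and COL5A1 fell and COL22A1 rose in the knockout libraries. Over all genes tested 7.84% passed, 3.21% higher and 4.63% lower, so 3 of 23 (13%) is a small count near that background. In 11 of the 23 chains the 3 knockout libraries lay entirely on 1 side of the 3 WT libraries, 4 above and 7 below, where over all genes 33.6% did, 16.5% above and 17.1% below. The median log2 fold change of the 23 was -0.34, with quartiles of -0.85 and 0.42, against 0.05 over all genes. A negative fold change was found for 13 of the 23, against 6466 of the 13965 genes tested. The 13 included at least 1 chain of every class with a tested member except the anchoring fibrils. In these bulk samples fewer cells of a type and less RNA per cell cannot be told apart.

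**Figure D1:**
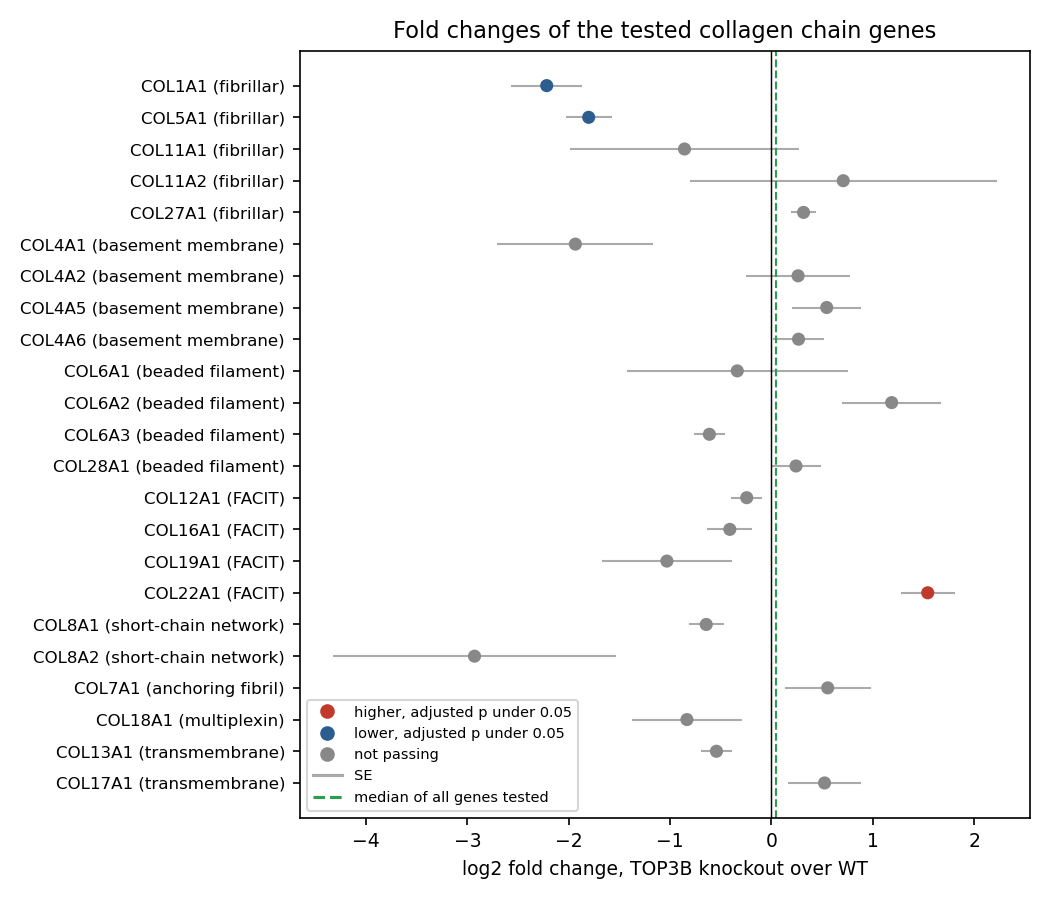
Log2 fold change (TOP3B knockout over WT) of the 23 tested collagen chains, grouped by class, with bars of 1 SE either way from edgeR, colour for the 3 that passed and a dashed line at the median of all genes tested. COL1A1 at -2.22, COL5A1 at -1.80 and COL22A1 at 1.54 passed the test, and COL8A2 had a wide bar around -2.93.

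Among the fibrillar chains, COL1A1, the main chain of type I collagen, had the larger of the 2 called falls. It lies on chromosome 17 from 50183289 to 50201632 on the minus strand (GENCODE v29, GRCh38, as for all positions here). It was at 0.787, 1.41 and 1.79 CPM in knockout libraries, against 6.66, 6.14 and 5.80 CPM in WT libraries. The groups did not overlap, and the highest knockout library was well under the lowest WT library. The mean was 1.33 ± 0.507 CPM in knockout and 6.20 ± 0.433 CPM in WT (SD, n = 3 each), a log2 fold change of -2.22 ± 0.35 (adjusted p = 0.0156). The counts behind these values were 16, 28 and 35 in knockout and 117, 121 and 118 in WT libraries. The call held in 2 of the 6 fits that left out 1 library (without knockout replicate 1 or 3) and had adjusted p of 0.0583 to 0.0696 in the other 4, with the log2 fold change between -2.50 and -1.95 in those 2. COL1A2, which encodes the partner chain of type I collagen, was too low to test, at 8, 3 and 1 counts in knockout and 9, 4 and 18 counts in WT libraries.

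COL5A1, a chain of type V collagen, which helps to set fibril width, lies on chromosome 9 from 134641774 to 134844843 on the plus strand. It was at 3.25, 2.82 and 2.20 CPM in knockout libraries, against 9.28, 9.68 and 9.94 CPM in WT libraries. The WT libraries were close to each other and all were well above every knockout library. The mean was 2.76 ± 0.526 CPM in knockout and 9.63 ± 0.330 CPM in WT (SD, n = 3 each), 3.49-fold lower in the knockout. The log2 fold change was -1.80 ± 0.23, with adjusted p = 0.00830. COL5A1 was the collagen chain called in all 6 fits without 1 library, with adjusted p of 0.00576 to 0.0489 and log2 fold changes of -1.94 to -1.67. Its partner chain COL5A2 was listed at 0 in the knockout libraries and at 0, 13 and 0 counts in WT libraries, and COL5A3 was listed at 0 in all 6 libraries.

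The promoter of COL5A1 is shown because it belongs to the chain whose call was the most stable over the left-out libraries. It is the 250 bases before the more upstream of the 2 start sites in RefSeq (GRCh38.p14, chr9:134641553-134641802, plus strand), with matches to GGGCGG on either strand, here read as CCGCCC, in capitals.
COL5A1: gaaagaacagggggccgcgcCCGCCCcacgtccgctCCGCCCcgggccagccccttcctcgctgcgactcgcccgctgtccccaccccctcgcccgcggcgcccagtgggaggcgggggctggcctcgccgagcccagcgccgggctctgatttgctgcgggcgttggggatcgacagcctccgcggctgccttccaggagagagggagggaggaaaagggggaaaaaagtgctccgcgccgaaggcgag
It holds GGGCGG matches starting at -230 and -214. It holds no CCAAT, no match to the letters TATAAA and no match to the letters TGACTCA, all searched on both strands. Of 35116 promoter windows of the same length in the RefSeq table, 42.6% hold GGGCGG on either strand, 32.0% hold CCAAT, 10.7% hold the letters TATAAA and 4.20% hold the letters TGACTCA. The table matched 31 of the 43 chains by symbol, with 43 windows, since 8 chains have more than 1 start site. Counted by gene, 21 of the 31 hold GGGCGG in at least 1 window, 11 hold CCAAT, 7 hold the letters TATAAA and 0 hold the letters TGACTCA. A gene with several windows has more chances of a match than the single windows behind the percentages.

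The other fibrillar chains did not pass. COL27A1, a chain of the cartilage collagen type XXVII, was at 74.6, 74.6 and 82.3 CPM in knockout libraries, against 69.7, 56.9 and 59.3 CPM in WT libraries. The knockout libraries all lay above the WT libraries, by a small margin at the nearest pair. The log2 fold change was 0.32 ± 0.12 (adjusted p = 0.164). The type XI chains COL11A1 and COL11A2 varied within each group. COL11A1 had 10, 13 and 8 counts in knockout and 36, 16 and 0 counts in WT libraries, and COL11A2 had 32, 0 and 76 counts in knockout and 5, 58 and 2 counts in WT libraries. Their log2 fold changes were -0.86 ± 1.12 for COL11A1 and 0.71 ± 1.51 for COL11A2, and without knockout replicate 3 that of COL11A2 was -0.50. COL2A1, the main cartilage collagen, was listed at 0 throughout, and COL3A1 and COL24A1 had sums of at most 14 counts in either group.

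**Figure D2:**
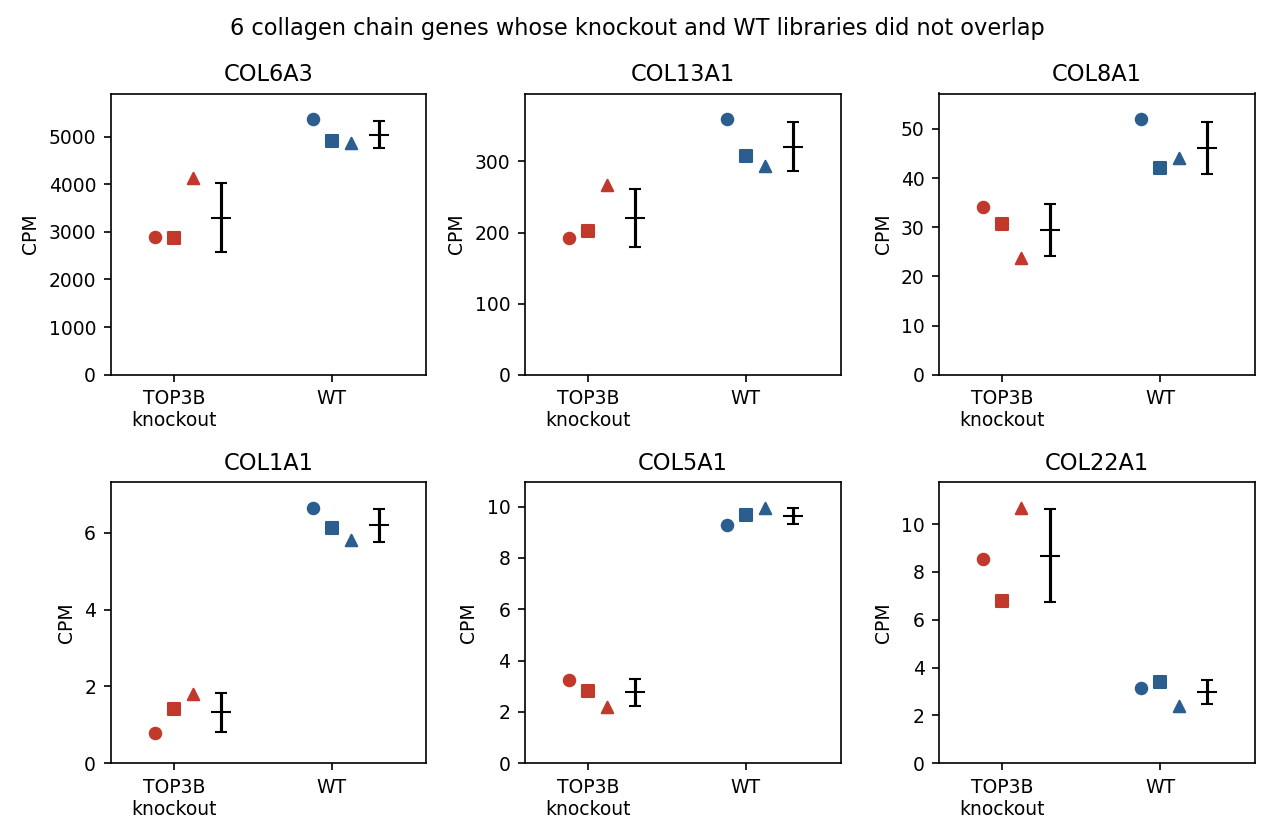
CPM in each library (linear axis from 0) of 6 collagen chains whose groups did not overlap, with TOP3B knockout libraries left and WT libraries right, marker shape giving the replicate and bars the mean and SD (n = 3). COL1A1 and COL5A1 lie lower in all 3 knockout libraries and COL22A1 higher, while COL6A3 and COL13A1 in knockout replicate 3 lie nearest to the WT libraries.

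Among the basement membrane chains no member passed. COL4A1 and COL4A2 encode the chains of the commonest type IV network and sit head to head on chromosome 13, with 126 bases between their RefSeq start sites. The stretch before COL4A2 is shown, since knockout replicate 3 was the highest library for one chain and the lowest for the other. It is the 250 bases before the COL4A2 start (GRCh38.p14, chr13:110307034-110307283, plus strand), of which the last 126 lie between the starts and the rest within COL4A1, with matches to CCAAT, found at -105, and to GGGCGG, found at -65, in capitals.
COL4A2: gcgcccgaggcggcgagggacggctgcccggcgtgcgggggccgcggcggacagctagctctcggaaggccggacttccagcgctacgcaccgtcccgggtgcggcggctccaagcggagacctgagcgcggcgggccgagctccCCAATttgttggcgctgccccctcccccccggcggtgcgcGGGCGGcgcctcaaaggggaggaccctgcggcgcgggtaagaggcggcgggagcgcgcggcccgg
COL4A1 had 13, 41 and 4 counts in knockout libraries, against 69, 42 and 104 counts in WT libraries. Every knockout library lay below every WT library, with knockout replicate 2 and WT replicate 2 nearly level. The log2 fold change was -1.93 ± 0.77 (adjusted p = 0.181). COL4A2 was at 15.6, 18.6 and 62.4 CPM in knockout libraries, against 31.3, 24.7 and 24.5 CPM in WT libraries. Knockout replicate 3 was the highest of the 6 and the other 2 knockout libraries the lowest. The log2 fold change was 0.26 ± 0.52 (adjusted p = 0.786) with all libraries and -0.66 without knockout replicate 3 (adjusted p = 0.0564, within 0.0564 to 0.982 over all alternatives). The count of COL4A2 per count of COL4A1 was 24.5, 9.02 and 305 in knockout libraries, against 7.97, 11.6 and 4.79 in WT libraries. The 305 rests on the 4 COL4A1 counts of knockout replicate 3.

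COL4A5 and COL4A6, another head-to-head pair, lie on the X chromosome. COL4A5 was at 5.12, 10.7 and 12.2 CPM in knockout libraries, against 7.46, 6.14 and 5.61 CPM in WT libraries. The groups overlapped, and the log2 fold change was 0.55 ± 0.34 (adjusted p = 0.374). COL4A6 was at 6.35, 7.30 and 6.81 CPM in knockout libraries, against 4.27, 5.48 and 7.23 CPM in WT libraries (log2 fold change 0.27 ± 0.25, adjusted p = 0.551). COL4A3, a chain of the kidney glomerular network, was listed at 0 in all 6 libraries.

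**Figure D3:**
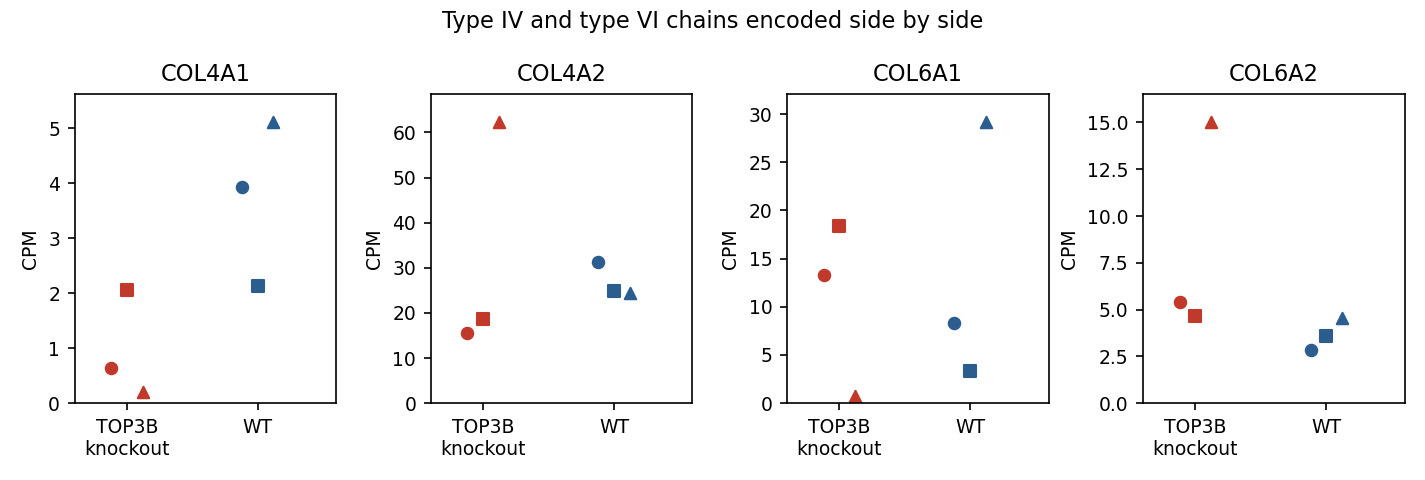
CPM of COL4A1, COL4A2, COL6A1 and COL6A2 in each library (linear axes from 0, scaled per gene), TOP3B knockout left and WT right, with marker shape giving the replicate. COL4A2 and COL6A2 are highest and COL4A1 and COL6A1 lowest in knockout replicate 3.

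Among the beaded filament chains no member passed either, although they held most of the collagen counts. COL6A3, the longest type VI chain, lies on chromosome 2 from 237324003 to 237414375 on the minus strand. It was at 2895, 2873 and 4131 CPM in knockout libraries, against 5371, 4905 and 4858 CPM in WT libraries. All 3 knockout libraries lay below the WT libraries, with knockout replicate 3 nearest to them. The mean was 3299.6 ± 720 CPM in knockout and 5045 ± 284 CPM in WT (SD, n = 3 each), and the log2 fold change was -0.61 ± 0.15 (adjusted p = 0.0552). Without knockout replicate 3 it was -0.82 with adjusted p = 0.00149, and adjusted p over all alternatives ran between 0.00149 and 0.169. COL6A3 made up 82.8% to 85.2% of all collagen counts in knockout and 86.5% to 87.5% in WT libraries.

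The other type VI chains, COL6A1 and COL6A2, lie near each other on chromosome 21 and varied widely between libraries. COL6A1 was at 13.3, 18.4 and 0.716 CPM in knockout libraries, against 8.31, 3.35 and 29.2 CPM in WT libraries. Its lowest library was knockout replicate 3 and its highest WT replicate 3. Knockout replicates 1 and 2 lay above WT replicates 1 and 2, but over all libraries the groups overlapped (log2 fold change -0.34 ± 1.09, adjusted p = 0.874). The log2 fold change was 0.20 without knockout replicate 3 and 0.89 without WT replicate 3. COL6A2 was at 5.41, 4.68 and 15.0 CPM in knockout libraries, against 2.85, 3.60 and 4.57 CPM in WT libraries. The knockout libraries lay above the WT libraries, knockout replicate 2 only just so (log2 fold change 1.19 ± 0.49, adjusted p = 0.196). Without knockout replicate 3, the highest library, the log2 fold change was 0.45. The count of COL6A1 per count of COL6A2 was 2.45, 3.92 and 0.0476 in knockout libraries, against 2.92, 0.930 and 6.39 in WT libraries. COL28A1, a chain related to type VI, was at 2.78 ± 0.103 CPM in knockout and 2.35 ± 0.121 CPM in WT libraries (adjusted p = 0.590). COL6A5 was listed at 0 in all libraries, and COL6A6 at 2, 1 and 5 counts in knockout and 0 in WT libraries.

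Of the FACIT chains COL22A1, found at tissue junctions such as that of muscle and tendon, rose. It lies on chromosome 8 from 138588235 to 138914006 on the minus strand. It was at 8.56, 6.80 and 10.7 CPM in knockout libraries, against 3.13, 3.40 and 2.41 CPM in WT libraries. The groups did not overlap, and every knockout library was far above the highest WT library. The mean was 8.68 ± 1.95 CPM in knockout and 2.98 ± 0.511 CPM in WT (SD, n = 3 each), 2.91-fold higher in the knockout (log2 fold change 1.54 ± 0.27, adjusted p = 0.0208). The call held without knockout replicate 2 or without knockout replicate 3, and had adjusted p of 0.0655 to 0.0875 in the other 4 such fits.

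COL12A1, a FACIT chain of tendon and ligament, was at 139, 158 and 189 CPM in knockout libraries, against 216, 196 and 163 CPM in WT libraries. The groups overlapped (log2 fold change -0.24 ± 0.15, adjusted p = 0.368). COL16A1 was at 7.97 ± 1.79 CPM in knockout and 10.6 ± 1.24 CPM in WT libraries (adjusted p = 0.305), and COL19A1 had 11, 6 and 2 counts in knockout and 9, 10 and 19 counts in WT libraries (adjusted p = 0.366). The untested FACIT chains included COL21A1, with 0, 2 and 4 counts in knockout and 18, 6 and 11 counts in WT libraries, and the cartilage chain COL9A1, with 5, 9 and 6 counts in knockout and 3, 3 and 2 counts in WT libraries. COL9A2 was listed at 0 throughout, and COL9A3, COL14A1 and COL20A1 summed to at most 12 counts in either group.

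The remaining classes held COL13A1 and the type VIII chains. COL13A1, a transmembrane collagen of adhesive junctions, lies on chromosome 10 from 69801867 to 69964275 on the plus strand. It was at 192, 202 and 267 CPM in knockout libraries, against 360, 308 and 294 CPM in WT libraries. The groups did not overlap, and knockout replicate 3 was again nearest to the WT libraries. The log2 fold change was -0.54 ± 0.15 (adjusted p = 0.0788), and without knockout replicate 3 it was -0.71 (adjusted p = 0.00875, within 0.00875 to 0.224 over all alternatives). COL17A1, of the hemidesmosomes that anchor epithelia, was at 1.29 ± 0.218 CPM in knockout and 0.896 ± 0.214 CPM in WT libraries (adjusted p = 0.419). COL23A1 was listed at 0 in all libraries, and COL25A1 had at most 11 counts in any library.

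COL8A1 and COL8A2 encode the short chains of the type VIII network, known from vessel walls and the membrane under the corneal endothelium. COL8A1 was at 34.0, 30.6 and 23.7 CPM in knockout libraries, against 52.0, 42.0 and 44.1 CPM in WT libraries. The groups did not overlap, and here knockout replicate 3 was the farthest from WT (log2 fold change -0.64 ± 0.17, adjusted p = 0.0715). COL8A2 had 0, 59 and 0 counts in knockout libraries, against 121, 139 and 179 counts in WT libraries. It was thus listed at 0 in 2 knockout libraries and at over 100 counts in every WT library, with a log2 fold change of -2.93 ± 1.40 that did not pass (adjusted p = 0.252). Without knockout replicate 2, the library with 59 counts, adjusted p was 0.0127, and over all alternatives it ran between 0.0127 and 0.479. COL10A1, of growth plate cartilage, was under the filter with 1, 0 and 0 counts in knockout and 17, 9 and 13 counts in WT libraries. In edgeR it had adjusted p = 0.0390 with no filter on low counts, and 0.0390 in the fit without knockout replicate 3. In that second fit only WT libraries held enough counts to bring it past the filter, so these values do not stand as calls.

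COL7A1, which forms the anchoring fibrils of skin, was at 17.4, 41.4 and 25.8 CPM in knockout libraries, against 30.2, 14.1 and 13.3 CPM in WT libraries. The groups overlapped (log2 fold change 0.55 ± 0.42, adjusted p = 0.463). Of the multiplexins, COL18A1 was at 1.51 ± 1.00 CPM in knockout and 2.70 ± 0.353 CPM in WT libraries (adjusted p = 0.393), and COL15A1 had 5 counts in 1 WT library and none elsewhere. COL26A1 had at most 2 counts in any library. Altogether 20 chains were under the filter, with at most 43 counts summed over the 6 libraries, and 6 of them were listed at 0 throughout. P4HB and PPIB, which most cells express, were listed at 0 in all libraries and at 2 to 9 counts, so a low or zero value here cannot be read as absence. Rows of antisense or divergent transcripts at collagen loci had at most 8 counts in any library. What share of a gene's transcripts entered the counts was not tested.

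**Figure D4:**
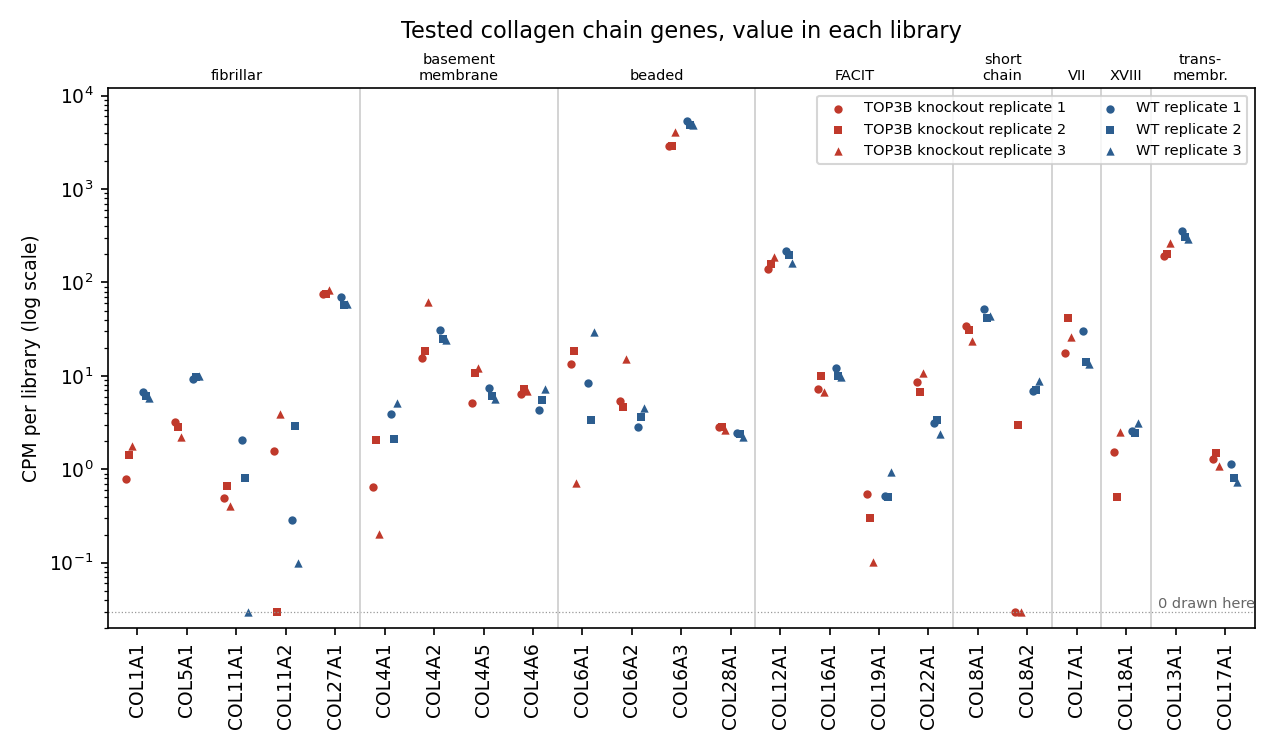
CPM of the 23 tested collagen chains in each library (log axis), ordered by class, TOP3B knockout in red to the left of WT in blue, marker shape giving the replicate and values of 0 drawn on the dotted line. COL6A3 lies far above all other chains in all 6 libraries.

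Summed over all chains, collagen took 0.343%, 0.348% and 0.512% of all counts in knockout libraries, against 0.608%, 0.543% and 0.552% in WT libraries. The knockout libraries were all lower, replicate 3 only slightly so. Without COL6A3 the sum was 533, 598 and 718 CPM in knockout libraries, against 837, 711 and 697 CPM in WT libraries, and the groups overlapped. The fibrillar sum, in which COL27A1 outweighs COL1A1 and COL5A1, was 81.4, 79.6 and 90.8 CPM in knockout libraries, against 89.1, 77.6 and 76.0 CPM in WT libraries. The beaded filament sum followed COL6A3, with 2917, 2899 and 4149 CPM in knockout libraries, against 5385, 4915 and 4894 CPM in WT libraries. These sums were not tested.

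To rank chains by level, CPM was divided by the merged exon length in kilobases. COL6A3 stood first, with a mean of 168 CPM per kilobase in knockout and 257 in WT libraries. COL13A1 followed at 37.4 in knockout and 54.4 in WT, and COL12A1 at 13.0 in knockout and 15.4 in WT. COL27A1 and COL8A1 exchanged the next ranks, at 5.52 and 3.13 in knockout and 4.43 and 4.89 in WT libraries. By the authors' RPKM the order after COL6A3 differed: COL12A1 was second at 3.70 in knockout and 4.19 in WT. COL13A1 was at 2.86 in knockout and 3.99 in WT. In knockout COL7A1 lay between them at 3.33, while in WT it was at 2.19, below both. The RPKM values imply lengths of 14.3% to 71.4% of the gene span for the 22 chains with enough counts. For COL27A1 the implied length was 46360 bases, against 13988 bases of merged exons, so RPKM was not per exon length throughout. For COL6A1 the 2 lengths were close, at 5255 and 5343 bases. In 9 of the 22 the implied length was within 3% of the mean genomic span of the gene's transcripts.

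The tested genes on either side of these chains were compared in the same way. The 5 tested genes on each side were taken, collagen chains left out, whatever their distance. Over all genes tested 7.84% passed, so none or 1 of 10 is near that share. Such counts cannot show whether a neighbourhood was spared. Around COL1A1, over 0.408 megabases, none of 10 passed the edgeR test and their median log2 fold change was 0.04. Around COL5A1, over 1.54 megabases, 1 of 10 passed, lower, with a median of -0.09. Around COL22A1 the 10 genes spanned 7.40 megabases, so they are not all local. None of them passed, with a median of 0.13 and a range of -0.59 to 3.92. Around COL6A3, over 2.59 megabases, none of 10 passed, with a median of 0.02.

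Genes that act with collagens were listed by role, and 74 were tested, of which 3 rose and 14 fell, where 3.21% of all genes rose and 4.63% fell. Their median log2 fold change was -0.24. Of 11 genes of chain hydroxylation and glycosylation 1 fell, P4HA2, a subunit of prolyl 4-hydroxylase, at 70.6 ± 4.02 CPM in knockout and 106 ± 0.017 CPM in WT libraries (adjusted p = 0.0162). Of 10 genes of folding and secretion 2 fell. They were FKBP14, a prolyl isomerase of the endoplasmic reticulum (log2 fold change -0.95 ± 0.17, adjusted p = 0.0238), and MIA3, which loads collagen into secretory carriers (-0.57 ± 0.12, adjusted p = 0.0335).

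Of 9 genes of propeptide processing and cross-linking 1 rose and 3 fell. ADAMTS2, which removes the amino propeptide of fibrillar chains, was at 66.0, 68.6 and 77.5 CPM in knockout libraries, against 44.1, 35.1 and 40.1 CPM in WT libraries. All knockout libraries were higher (log2 fold change 0.83 ± 0.13, adjusted p = 0.0166). LOX, lysyl oxidase, was at 29.6, 28.9 and 20.4 CPM in knockout libraries, against 58.8, 45.2 and 54.3 CPM in WT libraries (mean 26.3 ± 5.12 CPM in knockout and 52.8 ± 6.95 CPM in WT, adjusted p = 0.0257). FURIN, a protease that activates other propeptide-cutting enzymes, fell as well (-0.85 ± 0.08, adjusted p = 0.00338). Of 13 collagen receptors 1 rose, ADGRG1, a receptor for type III collagen (1.02 ± 0.21, adjusted p = 0.0347), and 1 fell, ITGA2, a chain of a collagen-binding integrin (-0.53 ± 0.10, adjusted p = 0.0242).

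Matrix proteins, proteases and regulators followed. Of 3 tested fibril-binding proteins 2 fell. FN1, fibronectin, was at 3495, 3561 and 2466 CPM in knockout libraries, against 11214, 11400 and 12630 CPM in WT libraries, and its groups were far apart (log2 fold change -1.89 ± 0.15, adjusted p = 0.00214). SPARC, which binds collagen and aids its deposition, was at 3445 CPM on average in knockout and 5727 CPM in WT (-0.73 ± 0.07, adjusted p = 0.00371). Of 14 basement membrane partners HSPG2, perlecan, rose (1.28 ± 0.28, adjusted p = 0.0422) and NID2, a nidogen that binds type IV collagen, fell (-1.87 ± 0.42, adjusted p = 0.0435). Of 4 collagen-cleaving proteases MMP9 and MMP2, both gelatinases, fell (MMP9 -2.52 ± 0.15, adjusted p = 0.00102, and MMP2 -0.83 ± 0.08, adjusted p = 0.00466). Of 10 regulators of collagen genes RUNX2, a bone transcription factor, fell (-0.95 ± 0.12, adjusted p = 0.00923), and so did CREB3L1, which activates type I collagen genes (-2.31 ± 0.52, adjusted p = 0.0443). CREB3L1 had 8, 26 and 11 counts in knockout and 83, 80 and 52 counts in WT libraries. Its knockout libraries alone would not have passed the filter on low counts. Its value therefore does not stand as a call, though it is among the 14 partner genes counted as falling.

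FN1, FURIN, MMP2, MMP9 and SPARC passed in all 6 fits without 1 library. RUNX2 passed in 5, ADAMTS2 and BMP1 in 2, and the remaining 9 partner genes called in 1 of the 6. For 8 of these it was the fit without knockout replicate 3, and for CREB3L1 the fit without knockout replicate 2.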

How the data were processed

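Ribosomal RNA-depleted total RNA from 3 TOP3B knockout and 3 WT libraries was sequenced with a directional kit, per the labels' protocols. Salmon 1.10.1 and the build hg19 appear in the submitters' processing notes. Their roles, the annotation and the use of strand are not given in the sources used here. Deposited by the authors were an estimated count per gene, rounded to whole numbers, and RPKM values. Counts were tested here as deposited, leaving out 1 row that could not be matched between the tables, with edgeR 4.0.16 (TMM scaling, filterByExpr, quasi-likelihood test, Benjamini-Hochberg over 13965 genes) in R 4.3.3. CPM is computed from the library's summed counts over the tested genes times its TMM factor, and shares of all counts use the full total. Fold changes come from the fit, so they can differ slightly from the ratio of mean CPM. The standard error is the log2 fold change divided by the root of the F statistic. Estimates are not whole reads, so depth gives only an approximate precision.

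DESeq2 1.42.0, limma 3.58.1 (voom, and trend on log2 of RPKM plus 0.1 or 1), other scalings and filters, and leaving out each library were the alternatives. The chi-square per degree of freedom between replicate libraries was at least 11.3, so none was a copy of another. Positions are from GENCODE v29 and promoters from RefSeq, both on GRCh38, matched by symbol. The members and lists were chosen with earlier results of these data known. Members that passed or averaged at least 10 CPM are given per library, and of each partner list at most 2 called genes per direction are named, taking the largest changes among genes averaging 1 CPM or more. BMP1, P4HB and PPIB were named after their values were seen.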

Additional observations from a re-analysis of the deposited data

How the results depend on the processing

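The 3 calls among 23 collagen chains were 6 with DESeq2, where 15.7% of all genes passed, and 5 with limma-voom, where 7.98% did. They were 1 to 6 when 1 library was left out, with 6 of 26 tested chains without knockout replicate 3, where 13.2% of all genes passed. Without knockout replicate 1 they were 2, where 2.71% of all genes passed, and without replicate 2 they were 3, where 2.5% did. Without any 1 WT library 1 chain passed, where 1.55% to 1.94% of all genes did. The 6 without knockout replicate 3 included COL10A1, which got past the filter there only through its WT libraries. The 5 with limma-voom included COL8A2, which was at 0 in 2 knockout libraries and got past the filter through its WT libraries. Over all genes the 1095 calls were 2199 with DESeq2 and 223 to 1899 when 1 library was left out, which is 1.55% to 13.2% of the genes tested. Beside these shares the 17 partner calls were 28 with DESeq2 and 6 to 22 when 1 library was left out. The median log2 fold change of the tested chains, -0.34, was -0.54 with no filter, -0.051 on log2(RPKM + 0.1), -0.0053 on log2(RPKM + 1) and -0.58 to -0.10 without 1 library. Directions turned for COL11A1 (0.70 with voom, -1.45 to 0.34 when 1 library was left out, the 0.34 without WT replicate 1), COL11A2 (-0.50 to 3.23, the -0.50 without knockout replicate 3), COL4A2 (-0.022 with voom, -0.66 to 0.60, the -0.66 without knockout replicate 3) and COL6A1 (-0.96 to 0.89, with 0.20 without knockout replicate 3 and 0.89 without WT replicate 3), and the cause was not tested. COL5A1 passed under all 14 alternatives. COL1A1 and COL22A1 each passed under 10 of the 14. Of 318 values of single chains over the alternatives 293 kept their direction and their side of the threshold. Since 20 of the 23 chains were not called, this mostly meant staying uncalled, so it does not measure how stable the calls were. Leaving out 1 library leaves fewer residual degrees of freedom and 2 libraries in that group. No paired analysis was possible because the knockout labels carry no replicate numbers. At under 50 counts a library, as for COL1A1 in the knockout, counting error limits the values.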
